A study of Gallus gallus with 3 samples.

Results

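The genes for the subunits of neurotransmitter receptors were examined in HNK1-sorted neural crest cells (NCC) of the chicken embryo. A gene was taken when its symbol in the annotation of the array begins with GABR, GRIA, GRIK, GRIN or GRM with a digit, CHRN, CHRM, GLRA, GLRB, HTR or DRD. These letters took 78 of 13009 named genes. HTRA2 and HTRA3, serine proteases that share only the first letters with the serotonin receptors, were set apart, which left 76 receptor genes on 135 probe sets. They are 15 GABA-A, 5 glycine, 4 AMPA, 4 kainate, 4 NMDA, 6 metabotropic glutamate, 15 nicotinic, 4 muscarinic, 14 serotonin and 5 dopamine receptor genes. Each gene is shown by 1 probe set, the one with the highest mean log2 signal.

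Neurotransmitter receptors are of 2 kinds. Ligand-gated ion channels are assembled from several subunits and open when a transmitter binds, whereas G protein-coupled receptors act through second messengers. In the peripheral nervous system that the neural crest gives rise to, nicotinic receptors carry fast transmission in autonomic ganglia, and sensory neurons of the dorsal root ganglia carry GABA-A and glutamate receptors on their cell bodies and endings. Some subunits are present before synapses form, when transmitters can act on dividing and migrating cells.

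The study profiled White Leghorn NCC on the Affymetrix chicken genome array. Cells of both trunk arrays came from explants at somite levels 11–22, and those of HH9 from heads cut where hindbrain meets midbrain, so that region, stage and dissection differ together between HH9 and trunk and cannot be told apart. No cells were treated and no gene was altered, and embryos were pooled for each sort. There were 3 arrays, 1 per stage. The methods speak of 3 biological replicates, and no source used here says whether the values of an array come from 1 replicate, a pool or an average. No difference below therefore has a replicate check, and no p-value was computed. The trunk arrays are called HH16t and HH19t after their titles, but their stages are unsettled, because the age fields name the opposite stages and both descriptions name HH16. By the titles, the neuron genes STMN2, SNAP25 and ELAVL4 run between these arrays against the direction that the study gives, and by the age fields they run with it. The cranial array is called HH9. Its source name says trunk, and it is taken as cranial from the methods.

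Signals are linear MAS5 values. A signal can be compared between arrays for the same probe set but not between probe sets. A floor of 99.8, the 40th percentile of all signals pooled over the arrays, was used as the lower limit. Where 1 of the signals compared was under the floor, the floor took its place and the fold, written "at least", is a lower bound. Where both were under it there is no fold. Shares of all named genes that are given beside a count of folds are over those with a fold in that comparison. Of 14 crest markers, 13, 14 and 14 were at or above the floor on HH16t, HH19t and HH9 (78.6%, 78.5% and 76.8% of all named genes were). All 8 epithelial markers were at or above it on every array as well, so this count does not test the neural crest label. SOX10, a crest transcription factor, had signals of 15746, 17338 and 12315 on HH16t, HH19t and HH9, and FOXD3, another, had 6650.2, 6018 and 4273.

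The share of receptor genes at or above the floor lay under that of all named genes on every array. Of the 76, 44 were at or above the floor on HH16t, where 78.6% of all named genes were. On HH19t, 38 receptor genes were at or above it against 78.5% of all named genes, and on HH9 38 were, against 76.8%. As shares these are 57.9%, 50% and 50% of the receptor genes. In all, 48 receptor genes reached the floor on at least 1 array (84.0% of all named genes did) and 33 on all 3 (71.7%). The signals of the receptor genes ran from 2.67 to 635. A signal under the floor is not evidence that a gene is silent, since probe sets differ in how strongly they bind.

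The other 28 receptor genes lay under the floor on all 3 arrays. They are GABRA4, GABRA5, GABRA6, GABRB2, GABRG1, GABRR1 and GABRR2 among the GABA-A genes, the glycine receptor gene GLRA3, the AMPA gene GRIA4, the kainate gene GRIK2 and the NMDA genes GRIN1, GRIN2B and GRIN3A. The metabotropic gene GRM8, the nicotinic genes CHRNA8, CHRND and CHRNG and the muscarinic genes CHRM2, CHRM4 and CHRM5 were also under it. So were the serotonin receptor genes HTR1A, HTR1F, HTR2A, HTR2B, HTR4, HTR5A, HTR6 and HTR7L. NMDA, muscarinic and muscle nicotinic receptors thus had 1 gene each at or above the floor on any array. All 5 dopamine receptor genes and 11 of 12 neuronal nicotinic genes reached it on at least 1 array, as 84.0% of all named genes did. On HH19t 6 of these 12 nicotinic genes reached it. The highest signal of the 28 was 98.7, of HTR1A on HH16t, so the line between these genes and the others is a narrow one. At the other side of it, GRIA1 reached 100.5 on HH19t and GABRR3 reached 101 on HH16t. Another probe set of GRM8 had 107 on HH16t.

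**Figure D1:**
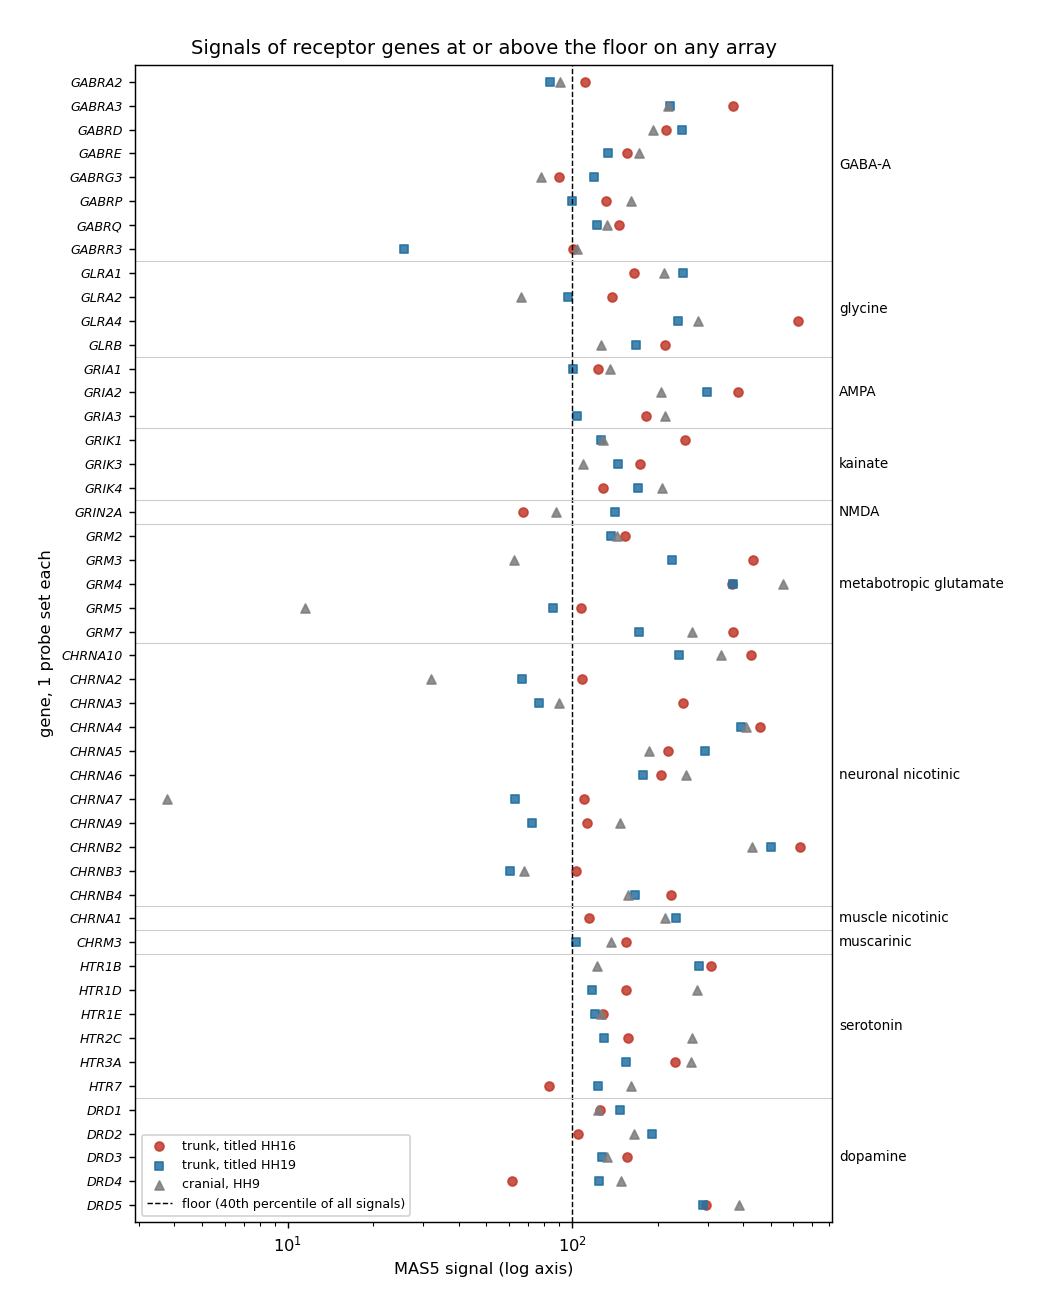
MAS5 signal (log axis) of the 48 receptor genes that reached the floor on at least 1 array, 1 probe set per gene, grouped by receptor family. Circles are HH16t (the trunk array titled HH16), squares HH19t (that titled HH19) and triangles the cranial array HH9, 1 array each, and the dashed line is the floor of 99.8. Most points lie within a few-fold of the floor, and 33 genes have all their points at or above it.

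The trunk arrays were made to set migrating tNCC (trunk NCC) against those at the time the dorsal root ganglia form. Between them, more receptor genes were brighter on HH16t than on HH19t, and 3 of them by 2-fold or more. All 48 genes had a fold, of which 14 were lower bounds (8.73% of all named genes with a fold were). The signal was higher on HH16t for 36 of them (75.0%) and higher on HH19t for 12, while among all 10681 named genes with a fold 48.0% were higher on HH16t. The median log2 ratio of HH16t over HH19t was 0.21 for the receptor genes and -0.02 for all named genes. For the 34 receptor genes at or above the floor on both trunk arrays it was 0.27, with 26 higher on HH16t. At least 2-fold higher on that array were 3 receptor genes, GLRA4, CHRNA3 and GRM7 (1.93% of all named genes with a fold were). CHRNA1 was the 1 gene at least 2-fold higher on HH19t (1.54%). The values nearest to the 2-fold threshold were those of CHRNA1, at 2.02-fold, and GRM7, at 2.14-fold, just past it, and those of GRIK1, at 1.97-fold, and GRM3, at 1.92-fold, just under it.

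Neuron markers differed in the same direction. Of 16 such genes, 6 were at least 2-fold higher on HH16t and 0 on HH19t, with a median log2 ratio of 0.73. The 6 were ELAVL2, ELAVL4, TUBB3, STMN2, STMN3 and SNAP25, of which STMN2 had signals of 4911, 1319.6 and 142 on HH16t, HH19t and HH9. The summed signal of the 16 was 34846 on HH16t, 18246 on HH19t and 11413 on HH9, and 16, 15 and 13 of them were at or above the floor. Markers of neural tube progenitors differed the other way: of 12, 6 were at least 2-fold higher on HH19t (SOX1, SOX3, PAX6, OLIG2, NKX6-2 and PTPRZ1, with PAX6 at 362, 1965 and 196), and the summed signals of the 12 were 14879, 22026 and 12075. Macrophage markers had summed signals of 1931, 1066 and 706, and all 5 with a fold were higher on HH16t. Endothelial, erythroid and epithelial markers were higher on HH19t for 5 of 7, 3 of 3 and 6 of 8 with a fold. Notochord markers were for 4 of 7, and crest markers for 6 of 14. The part of these cells in the receptor values was not tested. In sorted cells profiled in bulk, fewer cells that carry a receptor and less RNA per cell cannot be told apart.

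**Figure D2:**
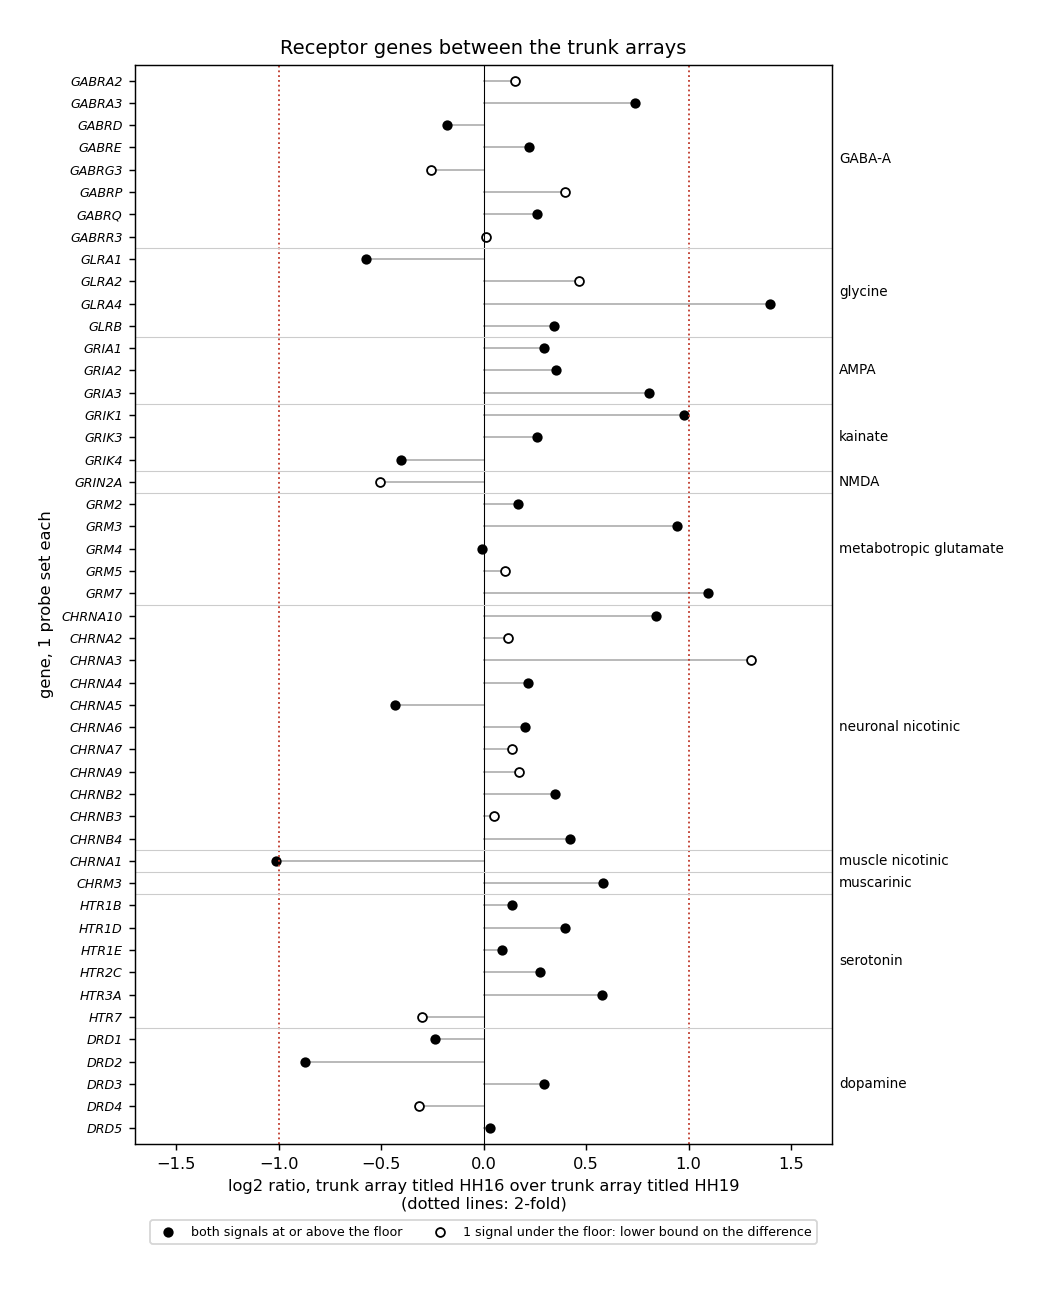
Log2 ratio of HH16t over HH19t for the 48 receptor genes that reached the floor, grouped by family, with dotted lines at 2-fold. Filled points have both signals at or above the floor and open points are the 14 lower bounds. GLRA4, CHRNA3 and GRM7 lie past 2-fold on the right, CHRNA1 lies past it on the left, and 36 of the points are to the right of 0.

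Glycine receptors are chloride channels of alpha and beta subunits, and their largest difference was in an alpha subunit. GLRA4, whose human counterpart is a pseudogene, had signals of 623 on HH16t, 236 on HH19t and 278 on HH9, so that it was 2.64-fold higher on HH16t than on HH19t. HH16t stood apart for this gene, while HH19t and HH9 were close to each other. GLRA1, the main alpha subunit of the adult spinal cord, ran the other way with 165, 245 and 211 on the arrays in the same order, 1.49-fold higher on HH19t. GLRA2, the alpha subunit of fetal receptors in mammals, had 138, 97.2 and 66.2 and reached the floor on HH16t alone. GLRB, the beta subunit that anchors the channel at synapses, had 213, 167 and 126 and was highest on HH16t, by 1.27-fold over HH19t. The alpha genes therefore did not share a direction between the trunk arrays.

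GABA-A receptors are the chloride channels opened by gamma-aminobutyric acid, and 8 of their 15 genes reached the floor. None of the 8 reached 2-fold between the trunk arrays with signals under the floor raised to it, and 4 of these folds are lower bounds. Among all named genes 1.93% passed that threshold with HH16t the brighter and 1.54% with HH19t the brighter. Of 7 with a fold between HH9 and HH16t, 0 passed it (3.20% of all named genes did higher on HH9 and 6.80% lower). Of 7 between HH9 and HH19t, 0 did (2.58% and 5.34%). With shares this small, a count of 0 among so few genes does not set the family apart. GABRA3, an alpha subunit, had signals of 368 on HH16t, 221 on HH19t and 218 on HH9, and was 1.67-fold higher on HH16t than on HH19t. GABRA2, another alpha subunit, had 111, 83.8 and 90.5 in that order and reached the floor on HH16t only. The avian gene annotated as GABRE, which the reference table also lists as GABRG4, had 156, 134 and 172, and GABRQ, which it also lists as GABRB4, had 147, 122 and 133. Neither differed by 2-fold between any pair of arrays. GABRP, the pi subunit, had 131, 99.7 and 161, and GABRR3, a rho subunit, had 101, 25.8 and 104. For both of these HH19t was the dimmest and lay under the floor, so that their folds are lower bounds there. With a floor at the 20th percentile GABRR3 was over 2-fold higher on HH16t and on HH9 than on HH19t, at a log2 ratio of 1.65 for HH16t over HH19t. Highest on HH19t were GABRD, the delta subunit of receptors outside synapses, with 215, 243 and 193, and GABRG3, a gamma subunit, with 89.7, 119 and 77.7. GABRD was at or above the floor on every array, whereas GABRG3 reached it on HH19t alone.

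AMPA and kainate receptors are the fast cation channels opened by glutamate. With the probe sets used here, all 3 AMPA genes above the floor, GRIA1, GRIA2 and GRIA3, had higher signals on HH16t than on HH19t, none by 2-fold. A second probe set of GRIA3 ran the other way, at least 1.38-fold higher on HH19t. GRIA2, whose edited product keeps calcium out of the channel, had signals of 382 on HH16t, 299 on HH19t and 205 on HH9. GRIA3 had 183, 104 and 213 in the same order and was 1.75-fold higher on HH16t than on HH19t, and GRIA1 had 123, 100.5 and 136. HH19t was the dimmest for GRIA1 and GRIA3, and HH9 was the dimmest for GRIA2. Among the kainate genes, GRIK1 had 249, 126 and 129, a 1.97-fold difference between the trunk arrays that came close to the threshold, and GRIK3 had 173, 145 and 109. GRIK4, a kainate subunit of the high-affinity type, ran the other way with 128, 170.1 and 207 and was highest on HH9.

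NMDA receptors need the GRIN1 subunit to form a channel, and GRIN1 lay far under the floor, at 14.3 on HH16t, 24.6 on HH19t and 6.18 on HH9. GRIN2A, which adds a glutamate-binding subunit, had 67.5, 142 and 88.1 in the same order and reached the floor on HH19t alone, at least 1.42-fold higher there than on HH16t. GRIN2B stayed under 10 on every array and GRIN3A had 66.2, 48.7 and 62.0. GRIN2A was thus the only NMDA gene with a signal at or above the floor, on 1 array.

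Metabotropic glutamate receptors are G protein-coupled, and the members fall in group I (GRM5), group II (GRM2 and GRM3) and group III (GRM4, GRM7 and GRM8). GRM3 had signals of 432 on HH16t, 225 on HH19t and 62.3 on HH9. It was 1.92-fold higher on HH16t than on HH19t, and at least 4.33-fold and at least 2.25-fold lower on HH9 than on these arrays. GRM2, its relative in group II, had 154, 137 and 143 and was level across all 3 arrays. In group III, GRM7 had 369, 173 and 264, with HH19t the dimmest, and GRM4 had 364, 367 and 550.4, with equal trunk arrays and a brighter HH9 array. GRM5, of group I, had 107, 85.8 and 11.5 with the probe set used here, and 183, 15.5 and 11.1 and 176, 32.0 and 15.2 with the other probe sets. For all 3 probe sets of GRM5 HH16t alone was at or above the floor, and the difference between the trunk arrays was at least 1.08-fold with the first and at least 1.83-fold and at least 1.76-fold with the others.

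Nicotinic receptors are the cation channels opened by acetylcholine. Of the 12 genes of the neuronal type, 11 reached the floor on HH16t, 6 on HH19t and 7 on HH9 (78.6%, 78.5% and 76.8% of all named genes did). Of the 11, 10 were higher on HH16t than on HH19t (48.0% of all named genes with a fold were). For 5 of the 11, HH19t lay under the floor, so that only HH16t could be the higher. Of the 6 at or above the floor on both trunk arrays, 5 were higher on HH16t (47.8% of all named genes). CHRNA3, the alpha subunit of the receptors of autonomic ganglia, had signals of 247 on HH16t, 76.8 on HH19t and 89.8 on HH9. It was at least 2.47-fold higher on HH16t than on HH19t and at least 2.47-fold higher than on HH9, and the other arrays were both under the floor. CHRNB4, which joins CHRNA3 in ganglionic receptors, had 222, 166 and 157 in the same order, a 1.34-fold difference between the trunk arrays. CHRNA5, an accessory subunit of the same receptors, had 218, 294 and 186 and was the 1 neuronal gene that was higher on HH19t, by 1.35-fold. These 3 genes lie next to each other in the reference assembly GRCg7b, with 0 protein-coding genes between them. Of these neighbours, 1 differed by over 2-fold, 1 by less and 1 ran the other way. The log2 ratio of CHRNB4 was 0.42, and 0.28 with its other probe set, and that of CHRNA5 was -0.43. These are smaller in size than the median distance of 0.81 between probe sets of 1 receptor gene, given below. That distance is over 7 genes and is not the error of a single ratio. With 1 array per stage, whether the neighbours move together is not settled.

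CHRNA4 and CHRNB2 form the most common nicotinic receptor of the brain, and both were at or above the floor on every array. CHRNB2 had signals of 635 on HH16t, 499.6 on HH19t and 430.0 on HH9, and CHRNA4 had 458, 394 and 410.5. CHRNA10, known from receptors of hair cells together with CHRNA9, had 427, 238 and 335 and was 1.79-fold higher on HH16t than on HH19t, and CHRNA9 had 113, 72.1 and 147. For both, HH19t was the dimmest. CHRNA6 had 205, 178 and 252 and CHRNB3, its neighbour in GRCg7b, had 103, 60.4 and 67.5. CHRNA7, which forms channels by itself and binds bungarotoxin, had 109.8, 63.1 and 3.76, and CHRNA2 had 108, 66.6 and 32.0. CHRNA2, CHRNA7 and CHRNB3 reached the floor on HH16t alone, each by little.

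The muscle type of nicotinic receptor was represented by CHRNA1, its acetylcholine-binding subunit. CHRNA1 had signals of 115 on HH16t, 232 on HH19t and 212 on HH9. With this probe set it was 2.02-fold higher on HH19t than on HH16t, and HH9 was near HH19t. The other probe set of CHRNA1, given below, was higher on HH16t than on HH19t. The other subunits of this receptor lay under the floor, CHRND at 80.2, 77.2 and 82.3 and CHRNG at 3.46, 3.55 and 3.65. Markers of skeletal muscle were looked at beside it. Of 13 such genes, 7 were at or above the floor on HH16t, 8 on HH19t and 9 on HH9, and their summed signals were 3456, 3305 and 4879. The muscle determination genes MYOD1 and MYF5 lay under the floor on every array, MYOD1 at 24.6, 8.16 and 3.39 and MYF5 at 37.4, 77.3 and 66.2, as did MYOG, which acts later, at 70.3, 44.6 and 41.9. Of 9 genes of the list with a fold between the trunk arrays, 5 were higher on HH19t, 0 of them by 2-fold. The other 4 were higher on HH16t, 1 of them by 2-fold. The list was thus split between the trunk arrays, and the genes named from it were chosen after their values were seen. MYF6, ACTC1 and TNNC1 were among those higher on HH19t. MYF6, a further determination gene, had 76.5, 133 and 122, the actin gene ACTC1 had 82.1, 178 and 934 and the troponin gene TNNC1 had 539, 817 and 1973. The troponin gene TNNT3 ran the other way with 711, 188 and 147. The part of muscle cells in the CHRNA1 signals was not tested. Among the muscarinic receptors, which are G protein-coupled, CHRM3 had 155, 103 and 137 and was 1.50-fold higher on HH16t than on HH19t.

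Serotonin receptors are G protein-coupled except for HTR3A, an ion channel, and 6 of their 14 genes reached the floor. None reached 2-fold between the trunk arrays (1.93% of all named genes did higher on HH16t and 1.54% on HH19t), where that of HTR7 is a lower bound. Of 6 with a fold against HH16t, 0 were at least 2-fold higher on HH9 and 1, HTR1B, lower (3.20% and 6.80%). Of 6 against HH19t, 2 were higher on HH9 and 1, HTR1B, lower (2.58% and 5.34%). The 2 were HTR1D and HTR2C, the latter with a probe set that may bind several transcripts. HTR3A had signals of 231 on HH16t, 155 on HH19t and 263 on HH9, a 1.49-fold difference between the trunk arrays. HTR1B, which couples to inhibitory G proteins, had 309, 281 and 122 in the same order. HTR1D, of the same subfamily, had 155, 118 and 275, so that HTR1B was lowest on HH9 and HTR1D highest on it. HTR2C, which couples to phospholipase C, had 157, 129.9 and 264, and HTR7, which raises cyclic AMP, had 82.9, 123 and 162, with its signal on HH16t under the floor. HTR1E had 129, 121 and 127 and was level.

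All 5 dopamine receptor genes reached the floor. DRD2, an inhibitory receptor, had signals of 105 on HH16t, 192 on HH19t and 165 on HH9, and was 1.83-fold higher on HH19t than on HH16t. DRD4, of the same D2-like class, had 61.6, 124 and 149, at least 1.25-fold higher on HH19t, whereas DRD3, also of that class, had 156, 127 and 133 and was higher on HH16t. The D1-like genes raise cyclic AMP. DRD1 had 125, 147 and 124 and DRD5 had 295, 289 and 386, while the second probe set of DRD5 had 113, 167 and 108, 1.48-fold higher on HH19t. Dopamine receptors were the family in which HH16t was least often the brighter of the trunk arrays among families with over 1 gene above the floor. It was the brighter for 2 of 5 genes, near the 48.0% of all named genes with a fold, and DRD5, 1 of the 2, differed by 1.02-fold. The median log2 ratio of HH16t over HH19t was -0.23 for these 5 genes and -0.02 for all named genes.

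Where a receptor gene had several probe sets, these often disagreed. Of 37 such genes, 15 had more than 1 probe set with a fold between the trunk arrays, and for 8 of the 15 the probe sets pointed in both directions. Over genes with 2 or more probe sets at or above the floor on both trunk arrays, the median distance between the highest and the lowest log2 ratio of a gene was 0.81 for 7 receptor genes and 0.31 for 4481 named genes. Probe sets of 1 gene share the RNA and are not replicates. GLRA4 was higher on HH16t with 2 probe sets, at 2.64-fold and 3.69-fold, while its dimmest probe set had 108, 141 and 109, 1.30-fold higher on HH19t. CHRNA3 has 1 probe set here, and its difference could not be set beside another.

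For GRM7 and CHRNA1 the 2-fold difference rested on 1 probe set. Of the 7 probe sets of GRM7, the one used here differed by 2.14-fold and the next 2 in brightness had 186, 186 and 166 and 174, 138 and 150.0, so that the first was equal on the trunk arrays and the second 1.27-fold higher on HH16t. The median over the probe sets of GRM7 was, on both trunk arrays, the signal of 1 dim probe set, 98.6 on HH16t and 133 on HH19t. That probe set may bind several transcripts. With HH16t under the floor, the log2 ratio of HH16t over HH19t was -0.41 as a bound, at least 1.33-fold higher on HH19t. CHRNA1 had 134, 29.0 and 122 with its other probe set, at least 1.34-fold higher on HH16t. With the median over both, HH19t lay under the floor and the log2 ratio turned to at least 0.31. GRIK1, GABRA3 and GRIA3 also pointed both ways. A second probe set of GRIK1 had 99.2, 138 and 131, one of GABRA3 had 225, 272 and 190.4 and one of GRIA3 had 99.8, 138 and 214. The probe sets of CHRNB4 stood close together, at 222, 166 and 157 and 208, 171 and 135. Those with a fold of CHRNB2, GRM3, GRM5, GRIA1, GRIA2 and GABRE kept to 1 direction. Except for GRM3, the probe sets beside the one used lay under the floor on HH19t, so that only HH16t could be the higher. For GRM5 the one used did too. A further probe set of GRIA2, with 57.6 on HH16t and 82.6 on HH19t, was under the floor and had no fold.

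**Figure D3:**
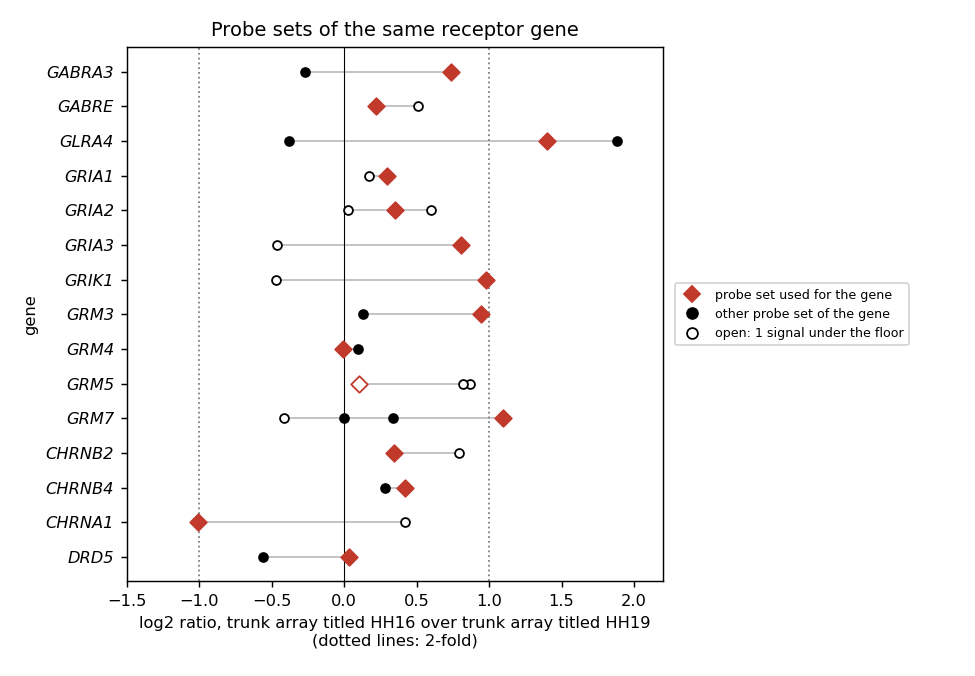
Log2 ratio of HH16t over HH19t for each probe set with a fold, in the 15 receptor genes that have more than 1. Diamonds are the probe sets used for the gene, circles the others, open symbols have 1 signal under the floor, and dotted lines mark 2-fold. The probe sets of GLRA4, GRM7, CHRNA1, GRIK1, GRIA3, GABRA3, DRD5 and GRM4 fall on both sides of 0.

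The HH9 array was set against each trunk array to ask how cranial NCC differ from trunk NCC in these genes. Both comparisons share HH9. Against HH16t, 46 receptor genes had a fold, 10 of them lower bounds (11.0%), 0 were at least 2-fold higher on HH9 (3.20% of all named genes) and 4 were at least 2-fold lower (6.80%), namely GRM3, HTR1B, CHRNA3 and GLRA4. Against HH19t, 41 had a fold, 6 of them lower bounds (10.2% of all named genes with a fold were). Of these, 3, HTR1D, GRIA3 and HTR2C, were at least 2-fold higher on HH9 (2.58%) and 2, HTR1B and GRM3, lower (5.34%). The signal was higher on HH9 for 18 of the 46 against HH16t (50.7% of all named genes were). Against HH19t it was higher on HH9 for 25 of the 41 (49.9%). The median log2 ratio of HH9 over HH16t was -0.11 for the receptor genes and 0.01 for all named genes. Over HH19t it was 0.07 for the receptor genes and -0.00044 for all named genes. With arrays centred on their medians, CHRNA1 was also at least 2-fold higher on HH9 than on HH16t, so that 1 was higher and 4 were lower. Centring moved the median of all named genes by 0.15 in the first comparison and by 0.10 in the second. Relative to that median, the receptor genes were at -0.12 in the first comparison and at -0.16 after centring.

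Markers of some cell types were mostly dimmer on HH9, and those of others were not. Neuron markers were among them. Of 16, 10 were at least 2-fold lower on HH9 than on HH16t, with a median log2 ratio of -1.91, and of 15 with a fold against HH19t, 7 were lower, with a median of -0.76. Neural tube progenitor markers were at least 2-fold lower on HH9 for 2 of 10 with a fold against HH16t and 8 of 12 against HH19t, with medians of -0.54 and -1.63. Of 5 macrophage markers 3 were lower against HH16t and 1 against HH19t. Endothelial markers were not dimmer against HH16t: of 8, 1 was at least 2-fold higher on HH9 and 1 lower, with a median of 0.04. Against HH19t 1 was higher and 4 were lower, with a median of -0.85. Epithelial markers ran the other way against HH16t, with 6 of 8 higher on HH9 and a median of 0.48. Against HH19t 4 of these 8 were higher, with a median of 0.02. The part of all these cells in the receptor values was not tested.

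HTR1B and GRM3 were at least 2-fold lower on HH9 than on both trunk arrays, and 0 receptor genes were 2-fold higher than on both, among 39 with a fold against both. Of all named genes with a fold against both, 3.91% were 2-fold lower and 1.61% higher than both. HTR1B differed by 2.52-fold from HH16t and by 2.29-fold from HH19t. It has 1 probe set here. GRM3 differed by at least 4.33-fold and at least 2.25-fold, and its second probe set had 182, 167 and 82.3, with HH9 again the dimmest and under the floor, which gives at least 1.83-fold and at least 1.67-fold.

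Several receptor genes were brightest on HH9. HTR1D was 1.77-fold higher on HH9 than on HH16t and 2.33-fold higher than on HH19t. Its second probe set had 64.6, 85.7 and 165 and reached the floor on HH9 alone. HTR2C differed by 1.68-fold and 2.03-fold in the same order with a probe set that may bind several transcripts. Its other probe set lay under the floor on all arrays, so that it has no fold without the first. Over the median of both, HH19t lay under the floor and the log2 ratio against it was at least 0.60, a bound short of 2-fold. GRIA3 differed by 1.16-fold and 2.04-fold. The other probe sets of GRIA3 were also highest on HH9, one with 99.8, 138 and 214 and one with 257 on HH9 and signals under the floor on both trunk arrays. GRM4 was higher on HH9 with all 3 of its probe sets, by 1.51-fold and 1.50-fold with the brightest and by 2.16-fold and 2.31-fold with the second. The dimmest probe set of GRM4, with 34.0, 41.3 and 204, reached the floor on HH9 alone. For GRM4, HTR1D and GRIA3 every probe set that reached the floor was brightest on HH9. Each of these genes has a probe set that reached the floor on HH9 alone, where only HH9 could be the brightest. Such a probe set is no further support for the direction.

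**Figure D4:**
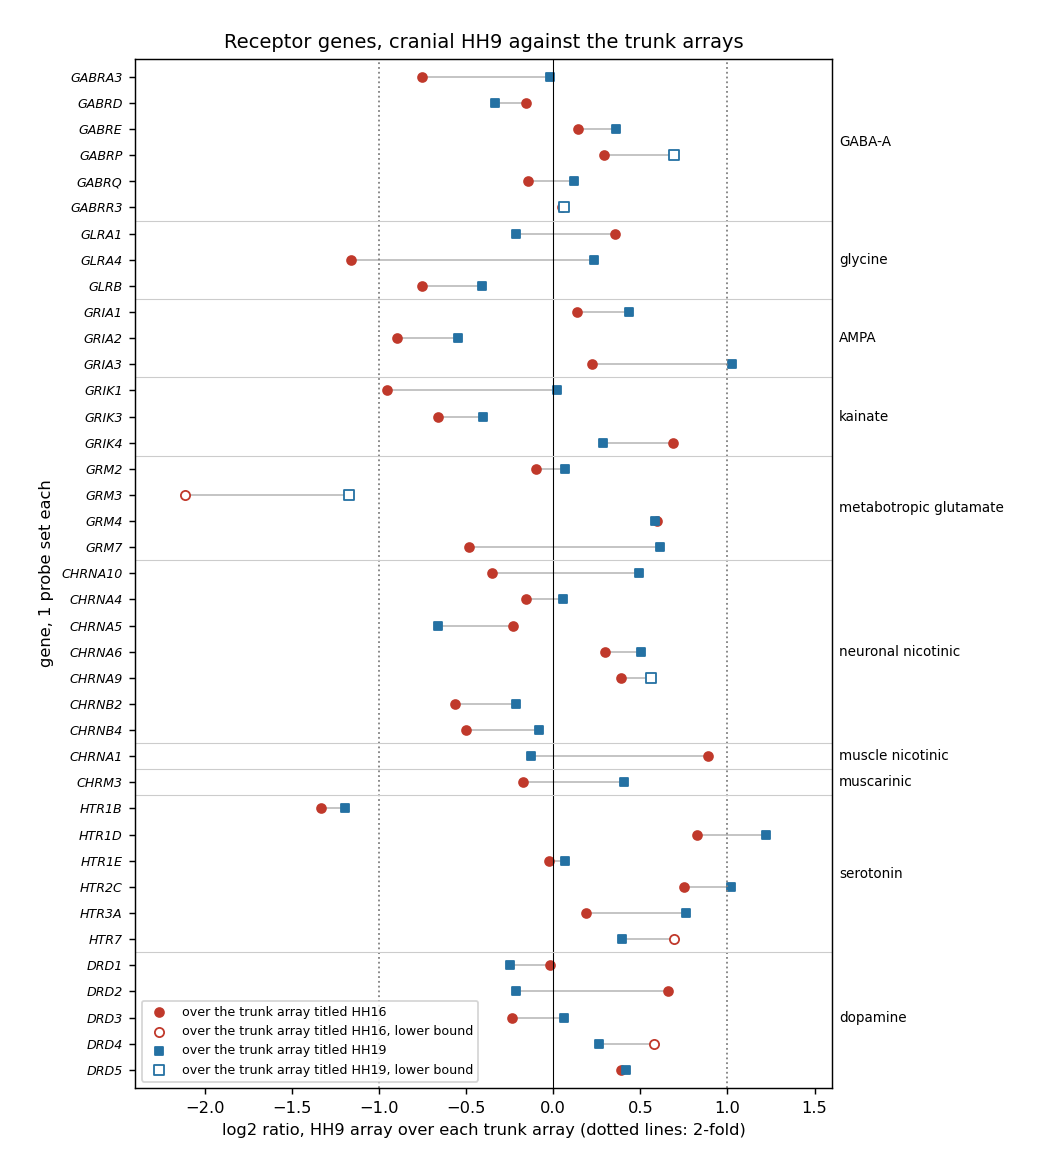
Log2 ratio of the cranial array HH9 over each trunk array for the 39 receptor genes with a fold against both, grouped by family, with dotted lines at 2-fold. Circles are the ratio over HH16t, squares that over HH19t, open symbols are lower bounds, and both ratios share the HH9 signal. HTR1B and GRM3 lie past 2-fold on the left in both ratios, and no gene lies past 2-fold on the right in both.

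Genes that make, move or remove the transmitters were described from a list. Of 32 on the array, 24 reached the floor on at least 1 array, and between the trunk arrays 3 were at least 2-fold higher on HH16t (1.93% of all named genes were) and 1 on HH19t (1.54%), with a median log2 ratio of -0.0042. TH, the enzyme that starts catecholamine synthesis, had signals of 353 on HH16t, 21.9 on HH19t and 173 on HH9, at least 3.54-fold higher on HH16t than on HH19t. The butyrylcholinesterase gene BCHE had 907, 284 and 175 in the same order, and SLC12A2, the importer that sets chloride in immature neurons, had 1662, 784 and 552. These differ by 3.19-fold and 2.12-fold between the trunk arrays, both higher on HH16t. TPH2, which makes serotonin in neurons, had 115, 231 and 28.9, 2.01-fold higher on HH19t. GAD1 and SLC18A3, which make GABA and load acetylcholine into vesicles, did not differ by 2-fold between the trunk arrays, GAD1 with 223, 207 and 86.7 and SLC18A3 with 1161, 918 and 99.6, and both were dimmest on HH9. On HH9, of 22 with a fold, 4 genes of the list were at least 2-fold higher and 7 lower than on HH16t (3.20% and 6.80% of all named genes), and of 22, 3 were higher and 4 lower than on HH19t (2.58% and 5.34%).

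Genes for proteins that assemble, cluster or modulate receptors were higher on HH16t than on HH19t for 20 of 28 with a fold, or 71.4% where all named genes had 48.0%. At least 2-fold higher on HH16t were 5 (1.93% of all named genes) and on HH19t 0 (1.54%), with a median log2 ratio of 0.30. HOMER3, which binds metabotropic glutamate receptors, had signals of 1561 on HH16t, 727 on HH19t and 646 on HH9. CACNG4, an auxiliary subunit of AMPA receptors, had 468, 218 and 103 in the same order, and NRXN3, a synaptic adhesion protein, had 371, 153 and 66.8. The calcium-dependent kinase genes CAMK2A and CAMK2D had 449, 196 and 192 and 740.1, 357 and 169.8. All 5 were brightest on HH16t. TMEM35A and RIC3, chaperones that help nicotinic receptors to the cell surface, had 391, 217 and 154 and 238, 164 and 141, 1.80-fold and 1.45-fold higher on HH16t than on HH19t, under the threshold. GPHN, the scaffold that holds glycine and GABA-A receptors at synapses, had 2437, 2164 and 1492, and AGRN, the organiser of acetylcholine receptors at the nerve-muscle junction, had 3730.3, 2633 and 1969. On HH9, of 29 with a fold, 0 genes of the list were at least 2-fold higher and 7 lower than on HH16t (3.20% and 6.80% of all named genes), and of 27, 1 was higher and 3 were lower than on HH19t (2.58% and 5.34%).

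Receptor genes for transmitters that the rule leaves out were described from a list of adrenergic, histamine, purine, adenosine, GABA-B and delta glutamate receptors. Of 17 on the array, 11 reached the floor on at least 1 array. Between the trunk arrays 9 had a fold, 1 was at least 2-fold higher on HH16t (1.93% of all named genes) and 0 on HH19t (1.54%), with a median log2 ratio of 0.41. The 1 was ADRA2A, the alpha-2A adrenergic receptor, with 371 on HH16t, 176 on HH19t and 476 on HH9.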

How the data were processed

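Signals of 3 Affymetrix arrays were used, 1 per group. The deposited values are MAS5 signals, an intensity on a linear scale, made for the authors by a company; no source used here gives the version or settings of MAS5. Every array has a mean of about 500 once its highest and lowest 2% are trimmed. The file holds 38535 probe sets, of which 38439 remained without the 96 controls: 27168 name 1 gene, 177 several and 11094 none. The reference table (GRCg7b), used for names and gene order, held all 135 receptor probe sets and changed 0 symbols. No sequence is printed.

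Each gene was read from its probe set of highest mean log2 signal, and signals under the floor were raised to it before a fold was taken. Genes were counted at 2-fold, the threshold of the methods. With 1 array per group no test was possible, and the number of arrays limits the precision. Every receptor gene at or above the floor on any array was given with its signals, and of the transmitter, assembly and other receptor lists those at least 2-fold different between the trunk arrays. Marker lists were given by counts, sums and a few names. Further genes of the lists, named for their role (GAD1, SLC18A3, TMEM35A, RIC3, GPHN, AGRN, MYOD1, MYF5, MYOG, MYF6, ACTC1, TNNC1, TNNT3, STMN2, SNAP25, ELAVL4, PAX6, SOX10 and FOXD3), and the values of GRIN1, GRIN2B, GRIN3A, CHRND and CHRNG, which lay under the floor, were chosen after their values were seen. The members and lists were chosen with earlier results of these data known. The counting step was run on simulated data in which changes were put only into genes far above the floor. Most receptor signals lie close to the floor, so that run does not test the receptor counts. Python 3.11.15, numpy 2.4.6, pandas 2.3.3, scipy 1.17.1 and matplotlib 3.10.9 were used. Alternatives were other scalings, floors, thresholds and choices of probe set. The probe set with the highest signal on any array was added after the data were seen.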

Additional observations from a re-analysis of the deposited data

How the results depend on the processing

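No paired analysis was possible because each group has 1 array. Of 111 recomputed counts and medians of the receptor genes, 71 stayed within 1.5 times of the count or within 0.1 (log2) of the median. Counts are given for HH16t, HH19t and HH9 in that order. With a 60th-percentile floor, 13, 11 and 11 receptor genes were at or above it, and taking the median of a gene's probe sets 29, 24 and 24. With a 20th-percentile floor 59 were on HH19t.

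Between the trunk arrays, the 3 higher on HH16t became 8 with a 20th-percentile floor, 1 at the 60th, 10 with no floor and 0 at 3-fold. The 1 higher on HH19t became 4 with a 20th-percentile floor and with no floor, and 0 at the 60th, at 3-fold and taking the median of a gene's probe sets. GLRA4 alone was past 2-fold with a 60th-percentile floor. Taking the median of a gene's probe sets, the log2 ratio of HH16t over HH19t reversed, to 0.31 for CHRNA1 and -0.41 for GRM7. Both values are bounds with 1 signal under the floor. The median of the receptor genes in this comparison lay between 0.15 and 0.27 under all alternatives.

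For HH9 against HH16t, the 0 higher on HH9 became 1 with centring, quantile normalization, a 20th-percentile floor and the probe set with the highest signal on any array, 3 taking the median of a gene's probe sets and 4 with no floor. The 4 lower became 11 and 1 with 20th- and 60th-percentile floors, 15 with no floor and 1 at 3-fold. The median log2 ratio reversed from -0.11 to 0.0019 with centring and 0.0088 with quantile normalization, which moved all named genes as well. Relative to the median of all named genes it stayed below 0, at -0.12, -0.16 and -0.03. For HH9 against HH19t, the 3 higher became 5 and 0 with 20th- and 60th-percentile floors, 8 with no floor and 0 at 3-fold. The 2 lower became 4 and 0 with these floors, 9 with no floor, 0 at 3-fold and 1 taking the median of a gene's probe sets, which also put GRM4 in the place of HTR2C among the 3 higher. HTR2C was also lost, and 2 were higher, when probe sets open to several transcripts were left out. The median log2 ratio of 0.07 became 0.18 with centring, 0.17 with quantile normalization and 0.19 taking the median of a gene's probe sets. Relative to all named genes it was 0.07 before and after centring and 0.15 after quantile normalization. The cause of these changes was not tested, beyond what each alternative itself changes.

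Of 935 recomputed log2 ratios of single receptor genes, 896 kept their side of the threshold, 27 came to pass it, 10 no longer did and 2 reversed. A reversal was counted only where the value before or after was at least 2-fold. Any smaller ratio that changed direction is among the 896, which is thus not a count of kept directions. Most receptor signals lie close to the floor, and this limits every fold given here.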

Other observations

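Some receptor genes that lay under the floor on all arrays had signals that differed between arrays at these low levels, where the values are least certain. GLRA3, a glycine receptor alpha gene, had signals of 83.6 on HH16t, 8.39 on HH19t and 10.9 on HH9, and GRIA4, the AMPA gene that did not reach the floor, had 92.5, 5.77 and 7.53 in the same order. HTR1A had 98.7, 44.1 and 45.1 and HTR2B had 38.6, 7.07 and 6.22. In all 4 HH16t was the brightest. CHRM2 and CHRM4, both muscarinic receptors that couple to inhibitory G proteins, ran the other way between the trunk arrays, with 29.4, 55.7 and 7.02 and 37.2, 54.9 and 7.47, and were dimmest on HH9. These genes were chosen after their values were seen, and no fold is given for them.

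The serine protease genes that the letters of the rule also take were not treated as receptors. HTRA2, a mitochondrial protease, had signals of 1069.8 on HH16t, 1353 on HH19t and 1317 on HH9, and HTRA3 had 158, 135 and 98.5 in the same order.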
